A study of Mus musculus with 3 samples.

Results

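The receptors through which glutamate and GABA act are encoded in the mouse by 44 protein-coding genes whose symbols start with Gria, Grik, Grin, Grid, Grm, Gabra, Gabrb, Gabrg or Gabrr and a number, together with Gabrd, Gabbr1 and Gabbr2. They were taken by symbol from 21646 protein-coding genes and comprise 26 glutamate receptor genes and 18 GABA receptor genes. Chromatin accessibility at these genes was measured by DNase-seq, which maps stretches of DNA that the nuclease DNase I can reach in nuclei, such as promoters and enhancers. The cells were primary Müller cells, the radial glia of the retina, from B6NCrl mice of postnatal day 12, males and females pooled, with no treatment, transgene or mutation named. The labels give 1 group of 3 biological replicates, each with its own biosample but all with the same donor label, so the spread between them may be partly technical. The extraction document is one for cultured cells, and the labels name no sort and no time in culture.

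Each replicate came with a list of peaks, mostly 150 bp wide, each with a deposited score from 1 to 150. What the score counts is not stated, so it ranks peaks within a replicate and is not a number of reads. Replicates 1, 2 and 3 held 300269, 281185 and 184544 peaks. No counts come with the lists, so the depth is unknown and a lower number of peaks cannot be set against it. Overlapping peaks were joined, and joined regions to which all 3 replicates contributed are here named reproducible sites. A gene counts as open if such a site comes within 1 kb of a start site of any of its protein-coding transcripts; open means reachable for DNase I and says nothing of transcription. The label was checked against markers: all 12 Müller glia markers were open, including Rlbp1, Glul and Slc1a3, and 1 of 12 rod markers was, Cnga1, with Nrl and Crx among those that were not. These counts stand beside the 67.1% of all genes that were open, and the 96.5% of genes with a promoter rich in the dinucleotide CpG, called CpG-rich. Of all other genes 37.1% were open. Among the Müller glia markers 5 of 12 are CpG-rich, and among the rod markers 0 of 12. Of 10 bipolar cell markers, 3 of them CpG-rich, 7 were open, including Vsx1 and Trpm1 but not Cabp5, Pcp2 or Otx2. Of 10 amacrine and horizontal cell markers, 8 of them CpG-rich, 8 were open, including Gad1, Gad2 and Slc6a9 but not Tfap2b or Chat. Of 9 ganglion cell markers, 7 of them CpG-rich, 7 were open, including Rbpms, Pou4f1 and Pou4f2 but not Nefl or Sncg. These are neurons that use the receptors, and their part in the receptor results was not tested. Of 6 astrocyte markers 5 were open, including Gfap, Aldh1l1 and S100b but not Gjb6. In bulk DNA, a site open in few cells and a site weakly open in many cells cannot be told apart.

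Glutamate is the main excitatory transmitter of the retina and GABA one of its inhibitory ones. AMPA, kainate and NMDA receptors are ion channels that glutamate opens, and the metabotropic glutamate receptors and the GABA-B receptor signal through G proteins, while GABA-A receptors are chloride channels. Müller glia are known for clearing both transmitters, and many neuronal genes carry in their promoters the element RE1, which the repressor REST binds in non-neuronal cells.

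RE1 matches lay under the open sites of several receptor genes, and these sequences are shown first because RE1 was the motif whose frequency was several times higher at the receptor promoters than at all promoters. The motif searched has the arm TTCAGCACC, then 2 free bases and then a second arm, which is the run of capitals at the right end of the Grid1 sequence given with the distal sites; both strands were searched and up to 4 of its 19 fixed bases could differ. Within 1 kb of a start site, 6 of the 44 genes (13.6%) had such a match, against 2.43% of all genes. The matches of 3 of them are printed here. Capitals mark the bases that match, the first arm of the motif standing at the left, and all positions are on mm10.
Gria2, chr3:80802989-80803009, plus strand, upstream of the gene: TTtAGCACCgcGGACAGCGCt
Grin1, chr2:25319014-25319034, minus strand, exon: TTCAGCACCtcGGACAGCaCC
Gabrd, chr4:155397680-155397700, plus strand, exon: TTCAGCACCgaGGACgGCGga

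All 6 of these genes were open, against 86.7% of all genes with such a match. In 5 of the 6 the RE1 match lay inside the reproducible site. Over all genes, 526 had an RE1 match within 1 kb of a start site, and in 34.4% of those a reproducible site covered it. Seen from the open genes, 5 of the 35 open receptor genes (14.3%) had a promoter site over an RE1 match, against 1.25% of all open genes. The site over the match was centred downstream of the start site in Gabrd and upstream of it in Gria2. Gria2, which encodes the AMPA receptor subunit that limits calcium entry, scored 116, 107 and 79 over its match in replicates 1, 2 and 3. Gabrd, for a GABA-A subunit found outside the synapse, scored 69, 66 and 74 over its match, so replicate 3 was the lowest in Gria2 and the highest in Gabrd. Grin1, the subunit that every NMDA receptor contains, had its match 22 bp outside its reproducible site but inside a hotspot of every replicate; a hotspot is the wider accessible region called around peaks. A match describes letters and does not show that REST is bound.

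**Figure D1:**
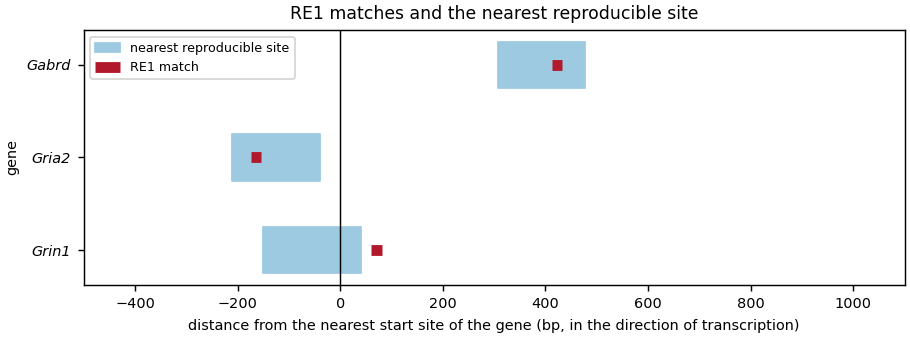
Position of the RE1 match (red) and of the nearest reproducible site (blue) in 3 of the 6 receptor genes with a match within 1 kb of a start site. The x axis is the distance in bp from the gene's nearest start site in the direction of transcription; the matches of Gria2 and Gabrd lie inside the site, and that of Grin1 lies 22 bp beyond its end.

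The open site of Gria2 lies wholly upstream of its annotated start sites, and 150 bp round its centre are printed to show the setting of the match, which is in capitals. The sequence is chr3:80802886-80803035 of mm10, read on the minus strand, the strand of the gene, so that the match appears as its reverse complement.
Gria2 promoter site: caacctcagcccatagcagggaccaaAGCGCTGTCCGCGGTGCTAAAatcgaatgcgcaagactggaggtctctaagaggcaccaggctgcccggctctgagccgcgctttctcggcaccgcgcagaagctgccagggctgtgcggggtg

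Most receptor genes had an accessible promoter in these cells. Of the 44 genes, 35 (79.5%) were open, against 67.1% of all genes; 23 of 26 glutamate receptor genes and 12 of 18 GABA receptor genes were open. A promoter peak was found at 39, 38 and 40 of the 44 genes in replicates 1, 2 and 3, a mean of 88.6% ± 2.27 (SD, n = 3), against 72.6%, 71.8% and 69.7% of all genes. Promoters rich in CpG are mostly open in any cell, so the genes were also set against promoters of their own class, with rich meaning an observed to expected CpG ratio of at least 0.6 and at least 50% G and C in the 1000 bp round a start site. Of 23 CpG-rich receptor genes 20 (87.0%) were open, against 96.5% of all CpG-rich genes. Of the 21 others 15 (71.4%) were open, against 37.1% of all other genes. The share of open genes was thus above that of its class in the promoters poor in CpG and below it in the CpG-rich ones. With a window of 500 bp 31 genes were open, Grin2d, Grm3 and Grm4 being among those lost. With the strongest 50% of each replicate's peaks 26 of the 44 genes were open, against 61.0% of all genes. The share was then no longer above that of all genes. Gabbr2, Gabra2, Grik1, Grik3, Grm4, Grm5 and Grm6 were among those lost. No test was made of these counts, since 1 group gives no contrast and the genes form a chosen list.

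The sites themselves were weak. The strongest promoter site of the 35 open receptor genes had a median score of 74, 61 and 64 in replicates 1, 2 and 3, against 125, 117 and 114 over all open genes. Ranked among all open genes of a replicate, the median receptor gene stood at percentile 12.9, 12.9 and 13.3, a mean of 13.05 ± 0.204 (SD, n = 3). In every replicate 33 of the 35 were under the median of open genes, against 42.1% of all open genes, and 26 were in the lowest 25% in every replicate, against 19.9%. A score of 100 or more in every replicate was reached by 1 receptor gene, Gabbr1, against 60.8% of open genes and 40.8% of all genes. The low ranks were also seen among CpG-rich promoters alone: the CpG-rich open receptor genes had median percentiles of 10.5, 9.10 and 15.4, where all CpG-rich open genes had 59.1, 58.8 and 59.6. The gap was smaller for the 15 open receptor genes that are not CpG-rich, with median percentiles of 14.9, 18.9 and 12.9, where all such open genes had 25.8, 25.7 and 22.3. Hotspots at the receptor promoters were also narrower, with medians of 697, 408.5 and 943 bp for the widest one per gene, against 1010.5, 794.5 and 1135 bp over all genes with a promoter hotspot.

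**Figure D2:**
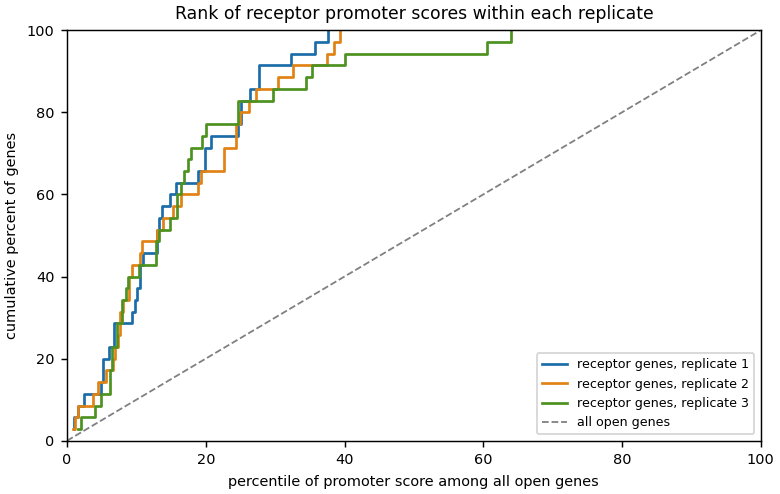
Cumulative percent of the 35 open receptor genes (y axis) against the percentile of their promoter score among all open genes of the same replicate (x axis), 1 line per replicate, with the diagonal that all open genes follow. The lines lie close to each other and far to the left of the diagonal, with medians at percentiles 12.9, 12.9 and 13.3.

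The strongest site also tended to lie away from the annotated start. It was centred a median of 180 bp from the nearest start site of the receptor gene, against 66 bp over all open genes. In 10 of the 35 (28.6%) it was more than 500 bp away, against 9.38% of open genes, and in 17 (48.6%) it was within 150 bp, against 73.8%. Upstream examples were Grm3 at 990 bp and Grik5 at 938 bp before the start, and downstream ones were Grin2d at 979 bp and Grm8 at 869 bp after it.

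The AMPA receptor genes, which encode the channels of fast excitation, ranged from one of the strongest receptor promoters to one without a reproducible site. Gria2 scored 116, 107 and 79 in replicates 1, 2 and 3. Gria4 scored 100, 89 and 101, and its replicates were close to each other. Gria3, on the X chromosome, scored 68, 63 and 43 at its strongest site. Gria1 had a weak promoter peak in every replicate, with scores of 36, 28 and 50, but no joined region held a peak from all 3 replicates, so Gria1 was not open by the rule; with any one replicate left out it was. Such a pattern was seen in 0.748% of all genes and in 2 receptor genes, the other being Grin2c.

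All 5 kainate receptor genes were open, and the strongest sites of Grik4 and Grik5 scored highest. Grik4 scored 110, 96 and 100 and Grik5 scored 102, 99 and 123; they encode the subunits that bind kainate with high affinity and need partners to form channels. Grik1 scored 52, 47 and 46, Grik2 scored 67, 51 and 73 and Grik3 scored 57, 45 and 39; these encode the subunits that form channels on their own. This order was read from the scores themselves, so it is no separate evidence about the kinds of subunit. For Grik5 it rested on a site centred 938 bp before the start. The other reproducible site of Grik5, centred 222 bp after the start, scored 46, 43 and 49, near the values of Grik1. Grid1, a delta receptor gene whose product binds synapse-organising cerebellins, scored 66, 51 and 68.

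Of the 7 NMDA receptor genes, 5 were open. Grin1, the obligatory subunit, scored 92, 86 and 71. Among the genes for the glutamate-binding subunits, Grin2d scored 104, 91 and 106, Grin2a scored 88, 86 and 78, and Grin2b scored 74, 56 and 48. Grin2c had promoter peaks of 41, 29 and 35 that formed no reproducible site. Of the Grin3 genes, Grin3a was open with scores of 81, 76 and 70, and Grin3b had a single peak, of score 34, in replicate 3. The order of Grin2d over Grin2a over Grin2b over Grin2c held in all 3 replicates for these values, but not for sites near a start. The site of Grin2d was centred 979 bp after a start site, and with a window of 500 bp Grin2d was not open. That of Grin2a was centred 712 bp after a start site. Another site of Grin2a, 107 bp before a start site, scored 58, 29 and 45, below Grin2b in every replicate.

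Promoters of the metabotropic glutamate receptor genes were mostly weak. Grm5, a group I receptor, which raises intracellular calcium, scored 34, 26 and 27, below those of groups II and III in every replicate. The group II receptors, which lower cyclic AMP, had Grm2 at 90, 83 and 87 and Grm3 at 74, 87 and 63. In group III, which acts the same way, Grm8 scored 114, 106 and 63 and Grm7 scored 57, 46 and 94, so their order in replicate 3 was the reverse of that in replicates 1 and 2. Grm4 scored 52, 42 and 43. Grm6, the receptor by which ON bipolar cells sense photoreceptor glutamate, scored 42, 38 and 50 and had no distal site in any replicate.

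Among the GABA-A alpha subunit genes, which shape the receptor's response to GABA and to benzodiazepines, Gabra2 and Gabra4 were open and scored low. Gabra2 scored 37, 24 and 56, and Gabra4 scored 55, 48 and 72. Gabra5 was found in replicate 1 with a score of 30 and in replicate 3 with 37. Gabra6 was found in replicate 1 with 37 and in replicate 2 with 31, and Gabra3 in replicate 3 alone with 27. These 3 genes and Grin3b had a promoter peak in 1 or 2 replicates, as did 6.79% of all genes. The beta subunit genes Gabrb1, at 90, 69 and 44, and Gabrb2, at 68, 49 and 44, were open. The gamma subunit gene Gabrg1 scored 79, 61 and 51, and Gabrg3 scored 75, 48 and 70. At the strongest site of Gabrb1, Gabrb2 and Gabrg1 the value of replicate 3 was below those of replicates 1 and 2. This did not hold at every site of these genes. A further site of Gabrb2 scored 54, 40 and 61, and 1 of Gabrb1, shared with Gabra4, scored 55, 48 and 72.

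The genes Gabrr1, Gabrr2 and Gabrr3, whose GABA-A receptors are known from bipolar cell terminals, had no promoter peak in any replicate. Among all genes 25.5% had none, and these were the only receptor genes with none. None of the 3 is CpG-rich. Of all genes that are not CpG-rich, 46.9%, 45.6% and 40.7% had a promoter peak in replicates 1, 2 and 3. All 3 Gabrr genes had distal sites: Gabrr1 had 7 reproducible ones, and Gabrr2 and Gabrr3 had 2 each. At least 1 was found at 69.8% of all genes, and the median over all genes was 2.

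The GABA-B receptor is made of the products of Gabbr1 and Gabbr2, and their sites within 1 kb of a start site were unlike each other. Gabbr1 scored 104, 105 and 121 at a site 28 bp before a start site, at chr17:37045916-37046085, and a further site at chr17:37050536-37050685, by an internal start site, scored 99, 99 and 105. Gabbr2 scored 34, 28 and 36. For these sites the replicates of the genes did not overlap. The lowest value of Gabbr1 was above the highest of Gabbr2 by more than the whole range of either. The contrast depends on the 1 kb window. A reproducible site of Gabbr2 centred 1177 bp before the start counts as distal and scored 97, 90 and 60. Another, 1293 bp after the start, scored 80, 63 and 68. Both genes are CpG-rich.

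**Figure D3:**
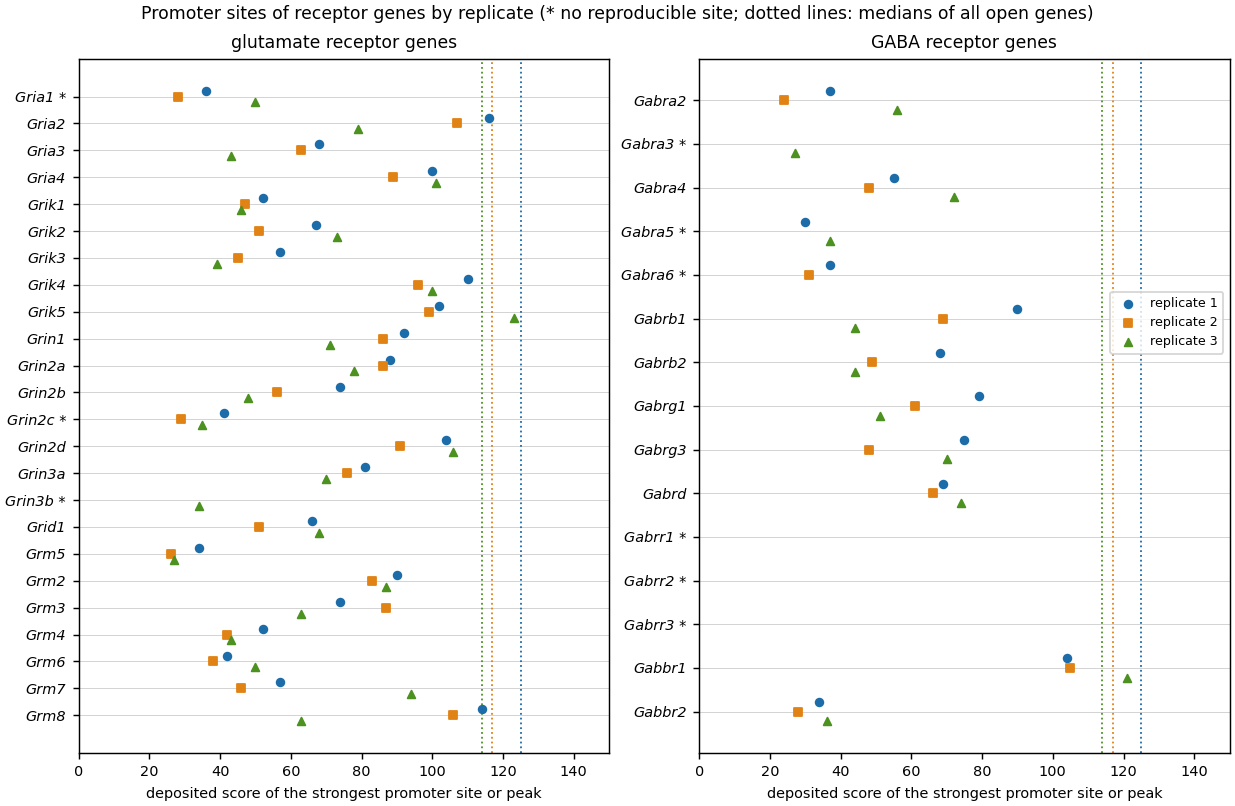
Deposited score (x axis, no unit) of the strongest reproducible promoter site of each open receptor gene, or of the strongest promoter peak where no site was reproducible (asterisk), 1 point per replicate, for the genes reported here. Dotted lines are the medians over all open genes, 125, 117 and 114 in replicates 1, 2 and 3; nearly all receptor genes lie to the left of them, and Gabrr1, Gabrr2 and Gabrr3 have no points.

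Accessible sites far from the start sites were also counted. A reproducible site more than 1 kb from every protein-coding start site is called distal. Each was assigned by distance alone to the gene whose start lies closest, up to 100 kb away, and may act on another gene. The 44 genes had 234 reproducible distal sites, 176 at glutamate and 58 at GABA receptor genes, and 532, 458 and 317 distal peaks in replicates 1, 2 and 3. At least 1 site was found at 39 genes (88.6%), against 69.8% of all genes, and 10 or more at 9 genes (20.5%), against 12.5%. The median gene had 3 sites, against 2 over all genes. Receptor genes lie in sparse regions, and the length of genome nearest to their start sites had a median of 154662 bp, against 43199.5 bp. Per 100 kb of that length the median receptor gene had 3.25 sites, against 4.36 over all genes, so the receptor genes had more sites but not a denser set. With the strongest 50% of each replicate's peaks these medians were 0.943 and 0.999, and the gap was much smaller. The total depended on replicate 3: without it, joining replicates 1 and 2 alone, 383 distal sites were reproducible and the densities were 5.31 and 7.99.

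Kainate receptor genes, Grid1 and Gabbr2 were among those with the most distal sites. Grik4 had 30, the 140th highest count of all genes, with 55, 55 and 38 peaks in replicates 1, 2 and 3. Gabbr2 had 17 sites, Grik3 had 14, Grid1 had 13, Grm7 had 12, Grik2 had 11, Gria1 and Grik1 had 10 each and Grm8 had 9. Grik4 and Gabbr2 thus differ in their promoter scores while both have many distal sites. Gria1, without a reproducible promoter site, had 10 distal ones. No reproducible distal site was given to Gabra3, Gabra4, Grik5 or Grm6, of which Grik5 has one of the strongest promoter sites. Among receptor genes with at least 20 kb of assigned genome, the densest were Gabbr1 with 13.7 sites per 100 kb, Gabrr1 with 13.5, Grik4 with 9.61, Grid1 with 9.32, Grik3 with 7.07, Grm2 with 6.77, Gabbr2 with 6.40, Grm4 with 6.19, Grm8 with 5.40 and Gria1 with 5.05. The first of these rest on few sites, 4 for Gabbr1 and 7 for Gabrr1.

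**Figure D4:**
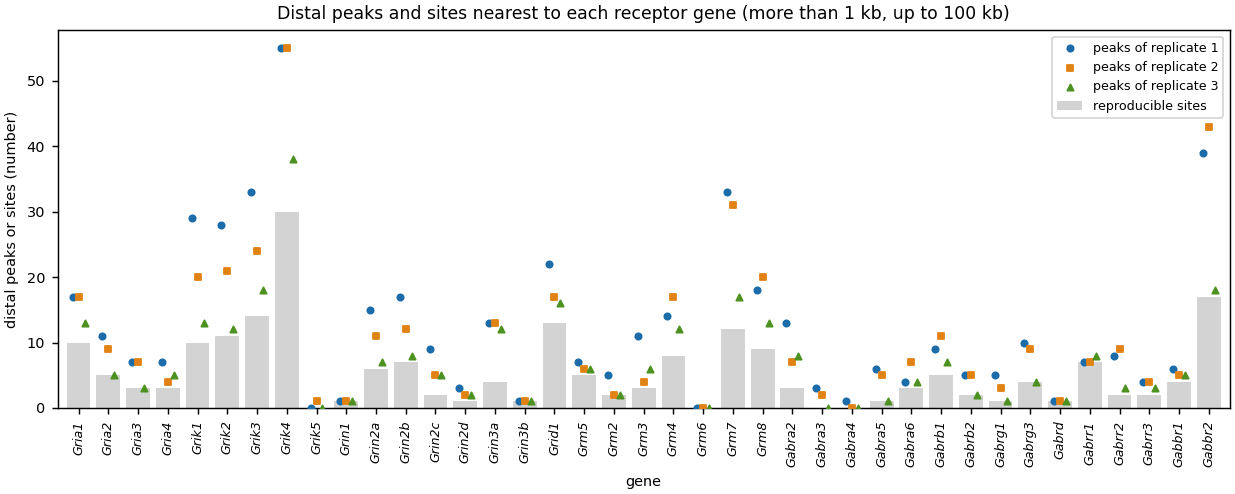
Number of distal sites (y axis) given to each receptor gene reported here (x axis): bars are reproducible sites and points are the peaks of each replicate. Grik4 stands highest with 30 sites, and replicate 3 has fewer peaks than replicates 1 and 2 at most genes with many sites.

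Most distal sites lay inside the receptor genes themselves. Of the 234, 160 were in an intron and 4 in an exon of their own gene, 56 were intergenic and 14 were inside another gene. The share inside the own gene was 70.1%, against 47.3% of all distal sites. Since receptor genes are long, sites were also counted over gene bodies at any distance from the start: 466 reproducible sites lay in the 44 genes, 263 of them more than 100 kb from any start site. The 26 receptor genes of at least 100 kb had a median of 2.90 sites per 100 kb of body, against 5.67 over 2479 genes of that length, so per length their bodies held fewer sites than the median long gene.

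The strongest distal sites of several subfamilies scored above the median promoter of all open genes in replicates 1 and 2, as no receptor promoter did. Those of the kainate, AMPA, group III and GABA-B receptor genes were among them, but not the only ones. The highest-ranked was at Grik4, chr9:43015496-43015665, 71087 bp upstream in the body of the neighbouring gene Arhgef12, with scores of 144, 135 and 111. The next, an intronic site of Gria1 at chr11:57091336-57091705, 78474 bp after the start, scored 133, 130 and 119. An intronic site of Grm8 at chr6:28052176-28052365 scored 142, 130 and 91. An intronic site of Gabbr2 at chr4:46731816-46732005 scored 134, 126 and 103, against 34, 28 and 36 at its promoter.

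Those of other subfamilies had lower mean ranks over the replicates. That of the alpha subunits, intergenic and nearest to Gabra6 at chr11:42326376-42326525, scored 134, 126 and 78, equal to the Gabbr2 site in replicates 1 and 2 and below it in replicate 3. That of the NMDA genes, in an intron of Grin2a, scored 129, 110 and 91. The best site of group II receptors, in Grm3, scored 112, 102 and 78, and that of the gamma and delta subunits, in Gabrg3, scored 106, 90 and 85. The best of group I, in Grm5, scored 89, 82 and 61, and the best of the Gabrr genes, in Gabrr3, scored 75, 65 and 36. In all 12 subfamilies the score of replicate 3 was the lowest. The same share over all distal sites was not counted, so this is no result about receptor genes. At promoters, replicate 3 was the lowest at 55.3% of all open genes.

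**Figure D5:**
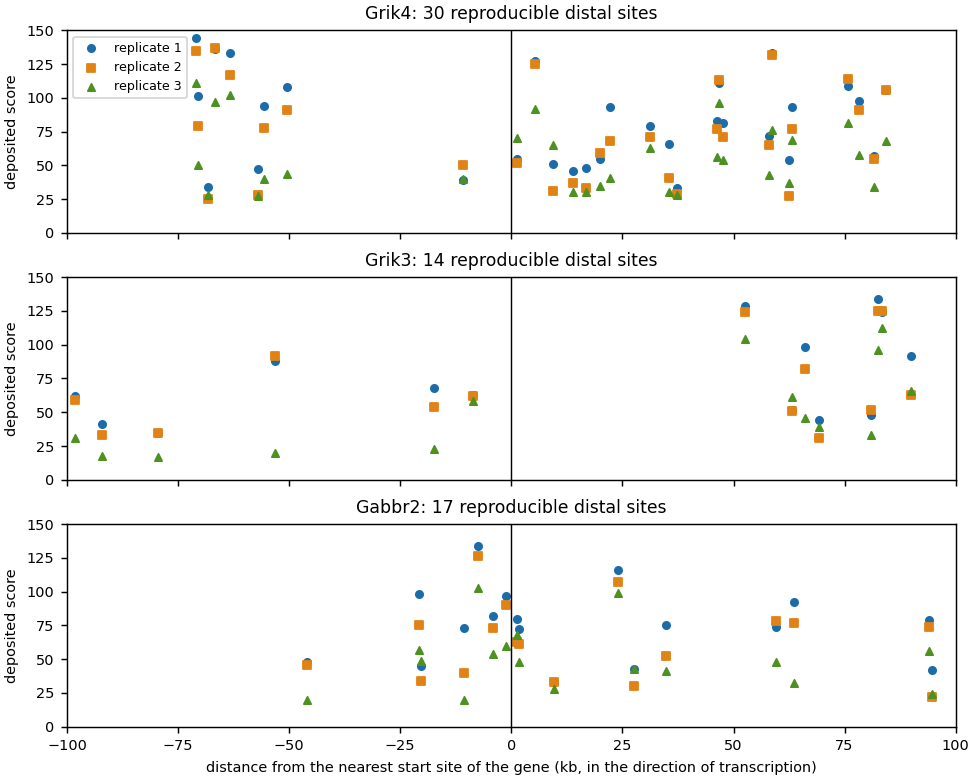
Deposited score (y axis) of each reproducible distal site of Grik4, Grik3 and Gabbr2 against its distance in kb from the gene's nearest start site (x axis, in the direction of transcription), 1 point per replicate. Grik4 has sites on both sides of its start sites, with the highest near 71 kb upstream, and the 3 strongest sites of Grik3 lie more than 50 kb into the gene.

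AP-1 and TEAD were about as frequent in the distal sites of receptor genes as in all distal sites. AP-1, the motif of FOS and JUN dimers (TGANTCA), was in 50 of the 234 distal sites (21.4%), against 20.6% of all distal sites, and TEAD (GGAATG) was in 20.9%, against 19%. In the 67 promoter sites TEAD was in 5 (7.46%), against 8.19%. AP-1 was in 0 of the 67 promoter sites, against 5.7% of all promoter sites. SP1 (GGGCGG) was in 40.3% of the promoter sites, against 44.6%, and in 8 distal sites (3.42%), against 6.5%. CRE (TGACGTCA) was in 1 promoter site (1.49%), against 1.81%, and in 0 distal sites, against 0.395%. RE1 was in 5 of the 67 promoter sites (7.46%), against 0.661%, and in 5 of the 234 distal sites (2.14%), against 0.562%. With at most 2 differing bases, a limit added after seeing the data, 3 promoter sites (4.48%) and 2 distal sites (0.855%) remained, against 0.224% and 0.195% of all sites, and with hotspots in place of peaks the total was 6 in place of 10. Each was searched on both strands in the 150 bp round the centre of a site. The full NFI motif, TTGGC and GCCAA with 5 bases between them, was in none of the receptor sites, against 0.012% of promoter and 0.0929% of distal sites.

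The AP-1 and TEAD matches in the strongest distal sites are shown in capitals in 150 bp round the centre, on the plus strand of mm10, to show how these motifs sit in 4 of the strongest receptor sites.
Grik4, chr9:43015506-43015655, AP-1: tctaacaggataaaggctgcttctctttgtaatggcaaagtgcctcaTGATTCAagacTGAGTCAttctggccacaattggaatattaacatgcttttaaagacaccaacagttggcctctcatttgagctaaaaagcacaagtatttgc
Grik4, chr9:43011206-43011355, AP-1: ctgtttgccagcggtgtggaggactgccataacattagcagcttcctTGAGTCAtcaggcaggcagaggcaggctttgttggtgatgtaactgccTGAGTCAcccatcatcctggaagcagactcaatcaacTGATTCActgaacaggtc
Grm8, chr6:28052196-28052345, AP-1: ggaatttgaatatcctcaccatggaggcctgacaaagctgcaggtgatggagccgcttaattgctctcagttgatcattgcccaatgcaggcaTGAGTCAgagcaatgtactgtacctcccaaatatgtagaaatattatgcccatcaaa
Grik4, chr9:42885706-42885855, TEAD: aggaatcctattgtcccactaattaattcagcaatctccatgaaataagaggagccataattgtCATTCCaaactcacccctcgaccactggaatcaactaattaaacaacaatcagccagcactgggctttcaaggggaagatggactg

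The second Grik4 site, chr9:43011196-43011365, scored 136, 137 and 97 and has 3 AP-1 matches, and the first has 2. The intronic Grik4 site with the TEAD match, chr9:42885696-42885865, scored 133, 132 and 76. The strongest sites of Gria1 and Gabbr2 have no AP-1 or TEAD match in the same window. Distal RE1 matches were found at Gabbr2, Grid1, Grm2, Grm4 and Grm5, and those of Grid1 and Grm4 are the closest to the motif, with 1 and 2 differing bases.
Grid1, chr14:34867444-34867464, plus strand, 47346 bp after the start: gTCAGCACCtcGGACAGCGCC
Grm4, chr17:27466827-27466847, minus strand, 36467 bp after the start: TTCAGCACCtcGGAgAGCGgC
The site over the match of Grm4 scored 98, 90 and 72, above its promoter site, and that of Grid1 scored 70, 58 and 41.

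GABA-A receptor genes lie in clusters. The cluster from Gabrg1 to Gabrb1 on chromosome 5 spans 1398 kb, had 4 of 4 receptor genes open and held 30 reproducible sites of any kind, 2.15 per 100 kb. Gabra4 and Gabrb1 share a promoter region there, with their starts facing away from each other, and 2 reproducible sites count for both. The genome held 5.52 per 100 kb. The neighbours Gabrr2 and Gabrr1 on chromosome 4, with neither gene open, held 7 sites in 101 kb, or 6.96 per 100 kb.

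Receptor promoters were also compared between replicate 3 and the others. The score of the strongest site was higher in replicate 3 than in both others at 12 of 35 open receptor genes (34.3%), against 16.7% of open genes, and lower at 15 (42.9%), against 55.3%. Of 133 joined promoter regions, 20 (15.0%) were found in replicate 3 alone, against 7.99% over all genes, and 13 (9.77%) in replicates 1 and 2 without replicate 3, against 16.3%. Of 624 distal regions, 148 (23.7%) were found in replicates 1 and 2 alone, against 27.2%. A promoter peak was found at 13, 13 and 2 of the 13 microglia and macrophage markers in replicates 1, 2 and 3, with Cx3cr1, Spi1 and Csf1r among those with no peak in replicate 3. Their scores ran from 52 to 118 in replicate 1 and from 49 to 117 in replicate 2, and the peaks of replicate 3 were those of Laptm5, at 40, and Irf8, at 115. Of the 8 endothelial markers 6, 6 and 5 had a promoter peak, and 5 were open, including Pecam1, Kdr and Cldn5 but not Cdh5, Tie1 or Emcn. The part of either cell type in the receptor results was not tested.

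Genes that work with these receptors were mostly open too, and their scores ranged widely. Their counts are to be read against the 67.1% of all genes and the 96.5% of CpG-rich genes that were open, and their median scores against 125, 117 and 114 over all open genes. All 8 genes for inhibitory postsynaptic proteins, 7 of them CpG-rich, were open, with median scores of 132, 130 and 119, including Gphn, the scaffold gephyrin, at 137, 130 and 141 and Nlgn2 at 146, 141 and 140. All 3 KCTD subunit genes of the GABA-B receptor, all CpG-rich, were open with medians of 115, 110 and 118, Kctd8 being at 115, 110 and 118, Kctd12 at 116, 111 and 123 and Kctd16 at 82, 68 and 56. Of the 14 excitatory scaffold genes, 8 of them CpG-rich, 13 were open with medians of 107, 95 and 100, including Dlg1 at 136, 122 and 133, Dlg2 at 46, 45 and 33 and Dlg3 at 72, 65 and 65, and Grip2 was not.

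Of the 14 auxiliary subunit genes of AMPA and kainate receptors, 11 of them CpG-rich, 12 were open with medians of 87, 85 and 88.5, including Cacng2 at 138, 127 and 119, Cacng3 at 115, 111 and 97 and Cacng4 at 74, 56 and 60, and Cacng5 and Gsg1l were not. Of the 7 genes for GABA synthesis, packaging and uptake, 4 of them CpG-rich, 6 were open with medians of 74.5, 65 and 68, including Gad1 at 64, 39 and 41, Gad2 at 85, 84 and 79 and Slc32a1 at 55, 46 and 50, and Slc6a13 was not. Of the 6 genes for glutamate uptake and glutamine synthesis, 3 of them CpG-rich, 5 were open with medians of 120, 121 and 81, including Slc1a1 at 76, 55 and 81, Slc1a2 at 120, 121 and 76 and Slc1a3, the main Müller glutamate transporter, at 126, 121 and 94, and Slc1a7 was not. All 3 vesicular glutamate transporter genes, 1 of them CpG-rich, were open, with Slc17a6 at 87, 67 and 57, Slc17a7 at 56, 33 and 56 and Slc17a8 at 103, 103 and 51.

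Other ligand-gated channel genes also scored below the medians of all open genes. Of 5 glycine receptor genes, 1 of them CpG-rich, 4 were open, with medians of 80, 54.5 and 55, including Glra1 at 83, 71 and 66, Glra2 at 79, 49 and 44 and Glra3 at 72, 47 and 27, and Glra4 was not. Of the GABA-A subunit genes Gabre, Gabrp and Gabrq, none of them CpG-rich, Gabre at 88, 75 and 74 and Gabrq at 54, 55 and 60 were open, and Gabrp was not.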

How the data were processed

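DNase-seq peak and hotspot lists of 3 replicates of 1 group were used, on mm10. Per the labels and the deposited descriptions, the lists were made per library from filtered alignments (aligner, caller, versions: not given in the sources used here). Peak values are a score deposited by the authors, whose meaning is not stated; hotspot values are a −log10 p or q deposited by the authors, from 1.30 to a cap of 100. No columns hold counts, so the depth is unknown and no interval is given.

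Repeated peaks (21, 20 and 23) were removed and peaks joined where they overlapped by at least 1 bp. Start sites are those of protein-coding transcripts of GENCODE M21, 1 gene per symbol, on autosomes and X. The strongest promoter site is the one with the highest mean score over replicates. Sequence was read from GRCm38. The scripts were tested on simulated intervals with known answers (Python 3.11.15, pandas 2.3.3, numpy 2.4.6, pysam 0.24.0). There is no contrast, so no test was made; counts stand beside those over all genes. The receptor genes and the other lists were chosen with earlier results of these data known. Named genes were all receptor genes, the 10 with most distal sites and the 10 densest, the strongest distal site of each subfamily, and up to 3 open and 3 closed genes of each other list in list order; some of these are not reported here by name, but all counts and medians include them. Alternatives were window sizes, start sites, replicates left out, peak strength, peak number, overlap, hotspots and RE1 mismatches.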

Additional observations from a re-analysis of the deposited data

How the results depend on the processing

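Alternatives were compared for 7 results, those for all receptor genes and the open counts of the glutamate and GABA receptor genes, which stayed within 1.5 times their main values throughout. The number of open receptor genes stayed within 1.5 times the main value of 35 under every one of the 11 alternatives run, from 26 with the strongest 50% of peaks to 38 with replicate 2 or 3 left out. Given the numbers of genes, none of these open counts could pass the upper limit, so only the lower one could fail. With the strongest 50% of peaks the share of open receptor genes was no longer above that of all genes, 61.0%. The number of distal sites, 234, was 110 with the strongest 50% of peaks, 129 with a limit of 50 kb, 400 with a limit of 250 kb, and between 239 and 383 with a replicate left out. The median per 100 kb, 3.25, was 0.943 with the strongest 50% of peaks, where that of all genes was 0.999, and between 3.25 and 5.31 with a replicate left out. Sites with RE1, 10 in all, numbered 6 with hotspots, 5 with at most 2 mismatches and 10 to 13 with a replicate left out. The median percentile of promoter scores, 13.05, was 10.998 with a window of 500 bp, 15.96 with 2500 bp, 14.4 with every transcript's start site, 14.6 without promoter sites nearer to another gene, 9.92 with the strongest 50% of peaks, 11.7 with an equal number of peaks per replicate, and between 12.9 and 14.2 with a replicate left out. The causes of these shifts were not tested. The alternatives for RE1 mismatches and for the percentile were chosen after seeing the data. A percentile from hotspots was not run, since about 90% of promoter hotspots are at the cap. No paired analysis was possible because there is 1 group. The depth is unknown and replicate 3 has fewer peaks.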
